A study of Homo sapiens with 12 samples.

Results

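The knockdown of MYCN alone was examined in IMR32 cells by setting 3 samples transfected with a MYCN siRNA against 3 samples transfected with a control siRNA. These are 6 of the 12 samples of the study, chosen by their labels, and every gene of the deposited expression table was included. IMR32 is an established human neuroblastoma cell line, derived from a childhood tumour of the sympathetic nervous system, and carries extra copies of MYCN. The control group, called siCtrl here, carried the siRNA labelled siCTR. The knockdown group, called siMYCN, carried the siRNA labelled siMYCN_2, so that the effect was measured with a single MYCN siRNA label in 1 cell line. A group with the HAND2 siRNA labelled siHAND2_3 (siHAND2, 3 samples) served for a direct test of where the MYCN knockdown differed from the other single knockdown. The last 3 samples, with both siRNAs, entered no comparison, but took part in the shared estimate of the spread, the filter on low values, the rescaling and the choice of genes to name. All groups received their siRNA by electroporation, were kept in regular growth medium for 72 h, and gave total RNA for sequencing. The labels do not say whether the replicates were separate cultures, so the p-values measure the spread between these samples, which may be technical.

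MYCN is a transcription factor of the MYC family that binds DNA together with its partner MAX, preferentially at the E-box sequence CACGTG. In many cell types MYC proteins are known to drive genes for making ribosomes, for nucleotide and amino acid supply and for cell growth, while MXD, MXI1 and MNT proteins compete for MAX and oppose them. Amplification of the MYCN gene marks aggressive neuroblastoma, a tumour of noradrenergic neuroblasts, and lowering MYCN in such lines is known to favour neuronal features such as neurites.

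To show what the binding sequence looks like in this gene set, promoter windows are given for 6 genes with large falls. They come from the lists on ribosomes, translation, chaperones and the supply of nucleotides, polyamines, amino acids and sugars. In each, the 250 bases before the gene start hold CACGTG. The choice did not cover every gene of these lists, so these need not be the 6 largest falls. The sequences are RefSeq promoters of build GRCh38.p14, read 5′ to 3′ on the strand of the gene, with the hexamer in capitals.
SLC38A5 (glutamine transporter, chrX:48470404-48470510, minus strand): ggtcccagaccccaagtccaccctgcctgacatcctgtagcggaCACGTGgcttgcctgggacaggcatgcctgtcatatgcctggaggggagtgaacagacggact
UTP20 (small subunit processome, chr12:101280038-101280104, plus strand): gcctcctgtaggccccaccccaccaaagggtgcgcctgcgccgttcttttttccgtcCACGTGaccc
CD3EAP (RNA polymerase I subunit, chr19:45406575-45406643, plus strand): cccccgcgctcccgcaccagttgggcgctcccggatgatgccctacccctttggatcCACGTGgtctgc
HSPE1 (mitochondrial chaperonin cofactor, chr2:197500300-197500378, plus strand): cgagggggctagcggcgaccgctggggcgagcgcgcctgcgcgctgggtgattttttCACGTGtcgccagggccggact
LDHA (lactate dehydrogenase, chr11:18394419-18394538, plus strand): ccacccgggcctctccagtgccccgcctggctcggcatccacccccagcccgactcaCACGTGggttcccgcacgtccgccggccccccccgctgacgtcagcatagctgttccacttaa
HSPD1 (mitochondrial chaperonin, chr2:197500300-197500419, minus strand): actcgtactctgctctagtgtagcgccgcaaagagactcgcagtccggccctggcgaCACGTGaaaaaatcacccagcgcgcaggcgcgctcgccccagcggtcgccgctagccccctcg
The hexamer began at position -206 from the gene start in SLC38A5, -10 in UTP20, -12 in CD3EAP, -22 in HSPE1, -87 in LDHA and -88 in HSPD1. LDHA held 2 copies in its 250 upstream bases, of which the window shows 1. HSPE1 and HSPD1 are divergent neighbours: their windows share 79 bases on opposite strands and show the same copy. A match in these letters is a description and not a measured binding site.

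The share of promoters with CACGTG was higher among genes called lower in siMYCN than among genes called higher. Of the 12680 genes tested, 10201 had a RefSeq promoter, and 9.2% of these held the hexamer, against 6.49% of all 27305 promoters of the table. The share was 12.8% among genes called lower (212 of 1662), 9.12% among genes not called and 6.08% among genes called higher (105 of 1727). After median-ratio rescaling the 3 shares were 12%, 9.06% and 6.96%, in the same order. With a match counted at any annotated start of a gene, a count chosen after the values were seen, they were 15.2%, 11.4% and 8.4%. The hexamer GGGCGG, a GC box that is common in promoters without being a MYC site, was held by 66.8% of the promoters of genes called lower, 68.6% of those not called and 67.2% of those called higher. CACGTG is its own reverse complement, GGGCGG was searched on both strands, and a copy of one can overlap a copy of the other by its last base. These shares are a description with no test. The median GC content of the promoters was 64% for genes called lower, 65.6% for genes not called and 66.4% for genes called higher, and its part in the shares was not tested. By gene list the shares did not follow the direction of change throughout. CACGTG stood in 10 of 44 promoters of translation factors and 10 of 74 of ribosome biogenesis genes, but in 3 of 63 of cytosolic ribosomal protein genes and in 0 of 20 of synaptic adhesion and scaffold genes. It stood in 6 of 29 promoters of lysosome and autophagy genes, a list with 12 higher and 1 lower, and in 5 of 25 of polycomb genes.

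**Figure D1:**
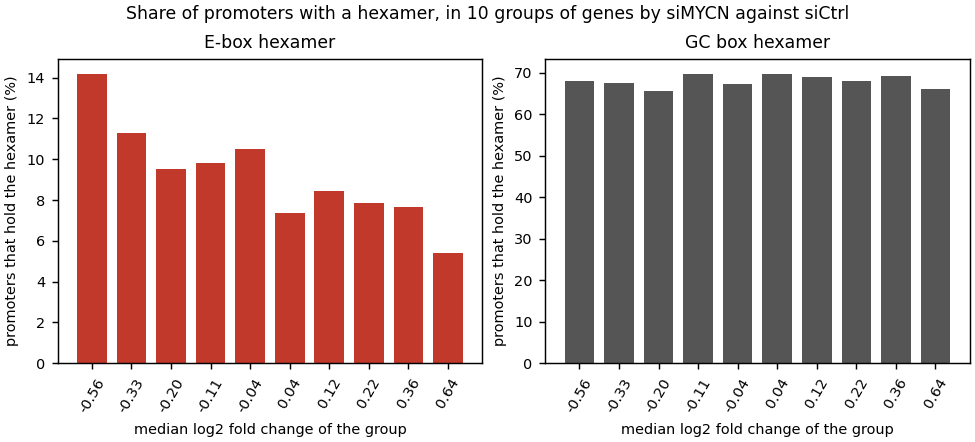
Share of promoters (%) whose 250 upstream bases hold the E-box hexamer (left) or the GC box hexamer (right), in 10 groups of about equal size formed from the 10201 genes with a promoter and ordered by log2 fold change; each bar is 1 group and is labelled with its median log2 fold change. The E-box share falls from 14.2% in the group with the lowest values to 5.39% in the group with the highest, while the GC box share lies between 65.7% and 69.8% throughout.

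Values are CPM, counts per 1000000 reads, as the authors deposited them. The fold changes below are differences of log2(CPM + 1) with their standard error (SE), 3 samples a group, so the change of a gene at low CPM comes out smaller than it was. A gene is called at an adjusted p under 0.05. Library depth, read from the smallest step of the CPM values, was 36.3 to 57.4 M reads in siCtrl and 37.9 to 42.5 M reads in siMYCN (M, 1000000 reads), so that 3 reads correspond to 0.0523 to 0.0826 CPM. The reads in listed genes made up 65.1% ± 0.74 of each siCtrl library and 62.4% ± 0.98 of each siMYCN library (SD, n = 3), with an exact permutation p of 0.1, the smallest that 3 against 3 samples allow. Because CPM is a share of all reads, this difference touches every value. Counts over whole lists are given also after median-ratio rescaling, which sets the typical gene equal between samples. Its factors were 1.09 to 1.10 in siCtrl and 1.08 to 1.10 in siMYCN, so it barely moved these groups against each other. In the 3 samples with both siRNAs, which enter the shared estimate of the spread, the factors were 0.729 to 0.991. Counts after rescaling to the sum over listed genes are added for several lists. Neither scale measures the amount of RNA per cell, and in bulk RNA a change in the share of cells in a state cannot be told apart from a change of RNA within each cell.

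The targeted gene was lower in every siMYCN sample, which checks the labels. MYCN (chr2:16080560-16087130 in hg19, as the deposited table gives positions) was at 964, 1049 and 1015 CPM in siCtrl and at 671, 666 and 708 CPM in siMYCN. All siMYCN samples lay below all siCtrl samples, at 67.5% of the siCtrl mean, with the exact two-sided permutation p at its smallest possible value of 0.1. The knockdown at the RNA level was thus partial at 72 h. MYCNOS, an antisense gene that overlaps MYCN, rose from 18, 17.4 and 19.8 CPM to 25, 26.2 and 27.3 CPM, a log2 fold change of 0.49 ± 0.11. Whether counting used strand is not given in the sources used here, so reads of overlapping genes such as these may not be separated.

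With this partial knockdown, 33.7% of the genes tested were called, 17.4% higher and 16.3% lower. After median-ratio rescaling 47.9% were called, 25.4% higher and 22.5% lower, and rescaling to the sum over listed genes moved the share of higher calls from 51.5% of all calls to 62%. The median log2 fold change over all genes was 0.006 before and 0.014 after median-ratio rescaling, and why more genes were called was not tested. Of the 4273 genes called on the deposited scale, 4167 were called in the same direction after median-ratio rescaling, and 0 in the opposite direction. Most changes were moderate: the median absolute log2 fold change of called genes was 0.48, and 290 genes passed a log2 fold change of 1, 218 of them higher. Leaving out 1 of the 6 samples at a time gave 3202 to 3434 calls, and 2614 genes were called in the same direction in each of these fits. In the lists below, counts of 1 or 2 genes changed by at most 1 in these fits, and larger counts that changed by over 1.5 times are given with their range. Where limma called 0 genes of a list in a direction, at most 1 of its genes had an unadjusted p under 0.05 in that direction on the deposited scale. The siCtrl and siMYCN samples did not overlap for 61.0% of the genes tested, so that lack of overlap alone marks no gene. None of the genes whose sample values are printed below had overlapping groups.

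**Figure D2:**
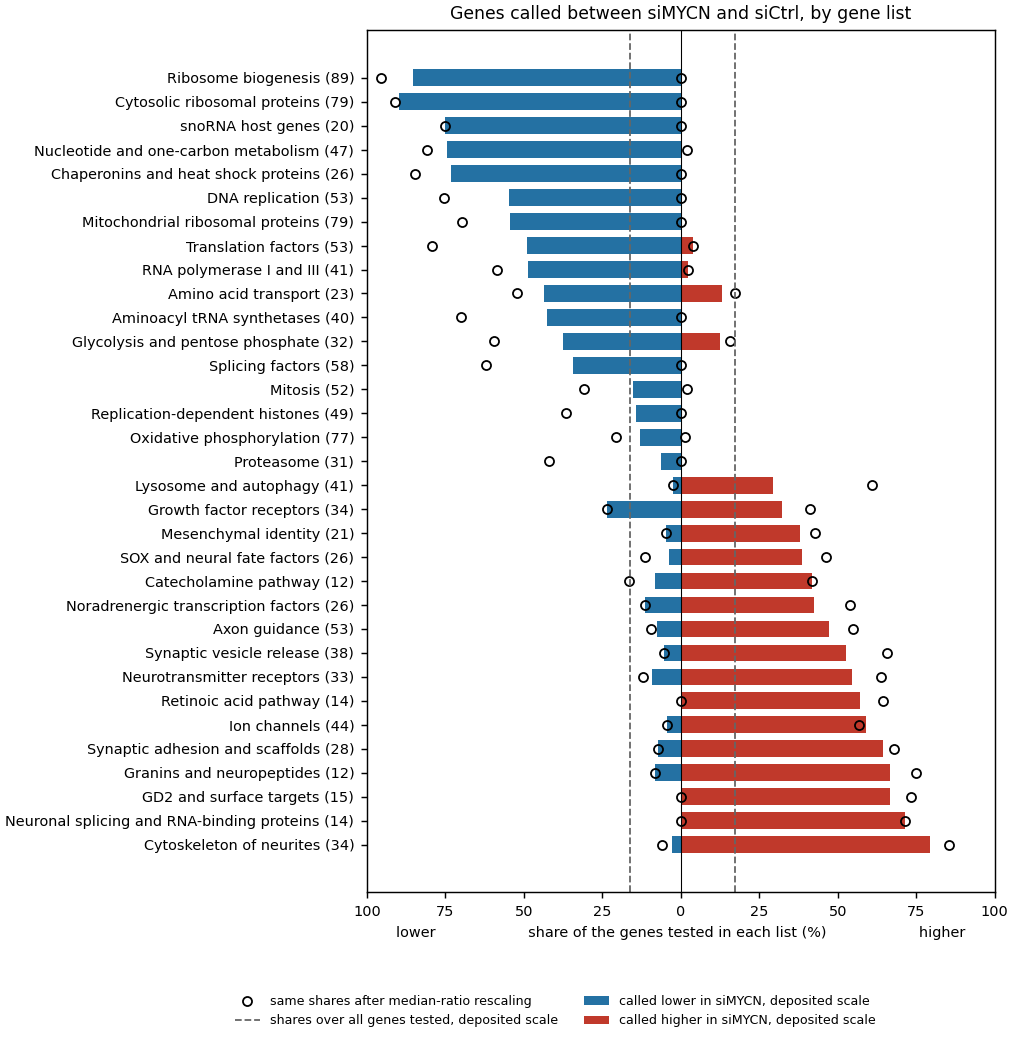
Share of the genes tested in each list (%, with the number tested in parentheses) that were called lower (blue, left) or higher (red, right) in siMYCN on the deposited scale. Open circles give the same shares after median-ratio rescaling. Dashed lines give the shares over all genes tested on the deposited scale, 16.3% lower and 17.4% higher. For the circles the shares over all genes, not drawn, were 22.5% and 25.4%. Lists for ribosomes, nucleotides and chaperones extend to the left, up to 71 of 79 cytosolic ribosomal protein genes, and lists for neurites, synapses and channels to the right, up to 27 of 34 genes of the neurite cytoskeleton.

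The 15 largest falls by the naming rule were led by membrane transporters and matrix genes. SLC38A5 (chrX:48316920-48328645), a transporter of glutamine and other neutral amino acids, was at 41.9, 40.8 and 44.1 CPM in siCtrl and 9.84, 8.67 and 9.32 CPM in siMYCN, 4.55-fold lower with a log2 fold change of -2.07 ± 0.12. SLC7A2, which carries cationic amino acids, went from 38.8, 39.9 and 37 CPM to 12.8, 13.4 and 11.1 CPM. VCAN, the matrix proteoglycan versican, went from 98.8, 106 and 79.6 CPM to 34.5, 34.2 and 29.8 CPM. The naming rule for the largest falls and rises admitted only genes whose groups did not overlap, so that separation was fixed by the choice. In these 3 genes the gap was wide. The other 12 had log2 fold changes of -1.42 to -1.18: the matrix genes FBN2 and LAMA1, the zinc transporter SLC39A8, the nucleoside transporter SLC29A2, the organic anion transporter SLCO4A1, the postsynaptic gene DDN, the small GTPase gene RAB29, the receptor gene FGFRL1, the kinesin gene KIF1C, the TGF-beta effector SMAD3, the TFIID subunit gene TAF4B and the endoplasmic reticulum calcium-binding gene RCN1.

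The 15 largest rises were led by genes of neurites and neuronal signalling. STMN2 (chr8:80523049-80578411), a stathmin of growing neurites, was at 4.08, 2.78 and 5.14 CPM in siCtrl and at 82, 78.2 and 83.2 CPM in siMYCN, a 20.3-fold higher mean. Its relative STMN4 went from 1.38, 1.25 and 1.27 CPM to 15.8, 12.4 and 14.5 CPM, and RGS4, which shortens G protein signals, from 1.35, 1.32 and 1.85 CPM to 13.1, 13.4 and 14.8 CPM. The siMYCN samples were close to each other in all 3 genes and far above siCtrl. NRP1, a semaphorin and VEGF receptor, followed with 9.64, 11.2 and 8.75 CPM against 47.5, 56.5 and 45.2 CPM. CALB1, a calcium-binding protein of neurons, rose by 2.07 ± 0.14 (log2, SE), and the receptor tyrosine kinase ALK by 2.07 ± 0.11. The other 9 had log2 fold changes of 1.75 to 1.95: PLCL1, OPTN (an autophagy receptor), TNC (tenascin C, a matrix glycoprotein), SYT11 (a synaptotagmin), SCN9A (a sodium channel), SCUBE1, GAP43 (a growth cone protein), DCC (a netrin receptor) and AHNAK.

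**Figure D3:**
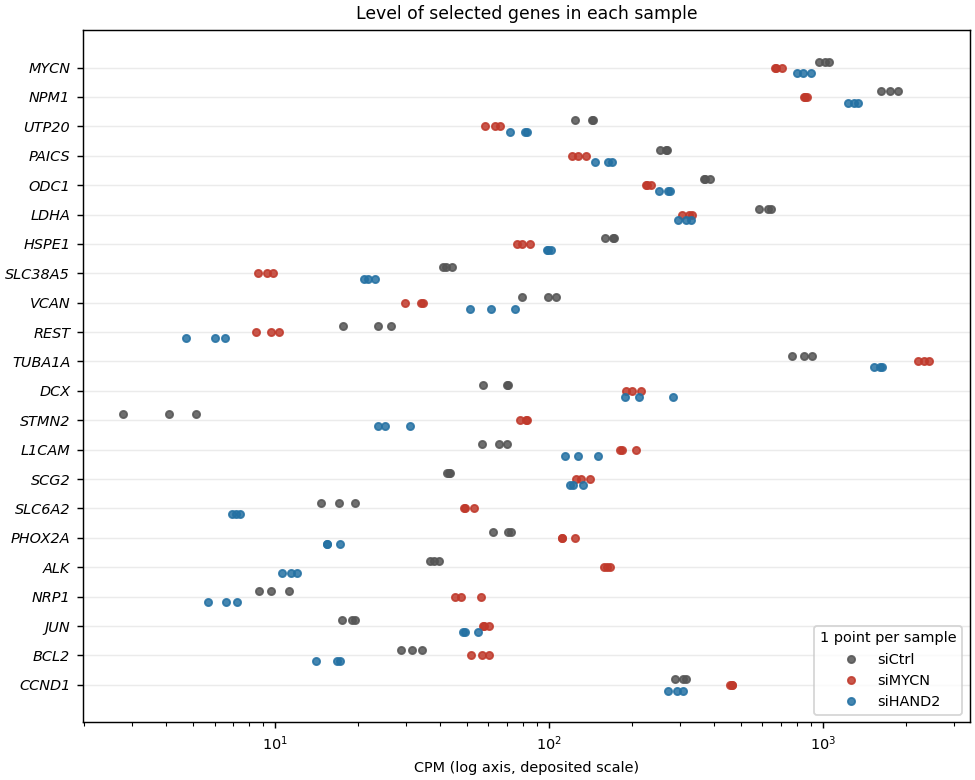
Level of 22 genes in CPM (log axis) in each siCtrl, siMYCN and siHAND2 sample, 1 point per sample. The siMYCN points (red) lie left of the siCtrl points (grey) from MYCN to REST and right of them from TUBA1A down, and for STMN2 they lie at 78.2 to 83.2 CPM against 2.78 to 5.14 CPM in siCtrl.

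In the MYC network, 7 of 22 tested genes were lower and 2 higher (8 and 3 after rescaling), with a median log2 fold change of -0.22 beside 0.01 for all genes tested. The 7 include MYCN itself, the siRNA target, whose fall was set by the knockdown. On the deposited scale 31.8% of the list was lower and 9.09% higher, beside 16.3% and 17.4% of all genes. MYCL, a family member at low level, fell from 3.99, 4.57 and 4.06 CPM to 2.11, 1.7 and 1.88 CPM. MYC itself was under the filter on low values, with 0.275, 0.0685 and 0.122 CPM in siCtrl and 0.765, 0.865 and 0.588 CPM in siMYCN. All 3 MYC values in siMYCN lay above those in siCtrl, but stayed under 1 CPM and were not tested. MAX, the shared partner, had a log2 fold change of -0.24 that did not pass the test on the deposited scale (adjusted p = 0.124) and passed it after rescaling (adjusted p = 0.0068). Among the antagonists MXD1 rose from 10.2, 10.5 and 8.21 CPM to 17.2, 15 and 14.8 CPM, MXD4 rose by 0.45 (log2) and MXI1 fell by 0.40 on the log2 scale. Among the cofactors the chromatin genes KAT2A, RUVBL1 and WDR5 fell, with log2 fold changes of -0.71, -0.59 and -0.51. Their relative RUVBL2 had -0.40, called with all 6 samples but not when siCtrl replicate 1 or 3 or siMYCN replicate 2 or 3 was left out (adjusted p = 0.0505 to 0.0707).

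Genes for building ribosomes were lower almost throughout. Of 89 ribosome biogenesis genes, 76 fell and 0 rose, with a median log2 fold change of -0.63 (85 fell after rescaling), and for 87 the groups did not overlap. All 22 nucleolar proteins of the list fell, with a median of -0.78. NPM1, nucleophosmin, went from 1757, 1632 and 1869 CPM to 857, 855 and 871 CPM, a log2 fold change of -1.02 ± 0.11. NOP16, which acts in large subunit assembly, went from 17.7, 19 and 19.1 CPM to 8.03, 7.77 and 7.83 CPM. The siMYCN means were at 49.1% and 42.4% of siCtrl, and the 3 siMYCN samples lay close together in both genes. Nucleolin (NCL, log2 fold change -0.67) and fibrillarin (FBL, -0.77) also fell. In the small subunit processome and its assembly helpers 48 of 59 fell, led by UTP20 with 143, 145 and 124 CPM against 63.6, 66 and 58.1 CPM and RRP9 with 41.5, 40.8 and 42.3 CPM against 18.2, 20.1 and 17.9 CPM. RRS1 fell by 1.07 (log2). The core proteins that modify ribosomal RNA with guide RNAs fell in 6 of 8, among them DKC1, dyskerin, with a log2 fold change of -0.92.

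The polymerases that transcribe ribosomal and transfer RNA moved in part. Of 41 genes of RNA polymerases I and III and their factors, 20 fell and 1 rose (24 and 1 after rescaling, 22 and 2 after rescaling to the sum). The lower count was 13 to 16 when 1 sample was left out, fewest without siCtrl replicate 1. POLR3G and POLR3GL encode alternative forms of the same polymerase III subunit. POLR3G fell from 4.76, 4.25 and 4.67 CPM to 1.08, 1.38 and 1.44 CPM, and POLR3GL rose from 6.88, 7.1 and 7.25 CPM to 9.23, 10.8 and 10.2 CPM. The forms moved in opposite directions, and POLR3GL was the single member called higher. CD3EAP, a polymerase I subunit, fell from 9.1, 9.36 and 9.43 CPM to 3.55, 3.6 and 4.09 CPM. The polymerase I initiation factor genes UBTF and RRN3 had log2 fold changes of -0.08 and -0.04 and were not called.

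Cytosolic ribosomal protein genes were lower nearly as a whole. Of 79, 71 fell and 0 rose (72 after rescaling), with a median log2 fold change of -0.50 and a range of -0.95 to -0.11. Summed over the list they took 53780 to 62590 CPM in siCtrl and 39280 to 41650 CPM in siMYCN, so the groups did not overlap. RPS18 fell from 1301, 1080.0 and 1307 CPM to 679, 588 and 633 CPM and RPL12 from 719, 669 and 796 CPM to 395, 380.5 and 399.7 CPM. In both, siCtrl replicate 2 was the lowest of its group. The 8 not called on the deposited scale include RPL10, RPL28 and FAU, with log2 fold changes of -0.18, -0.15 and -0.16. Many ribosomal protein genes have processed pseudogenes, and how reads shared with these were counted is not given in the sources used here. Host genes of small nucleolar RNAs followed, with 15 of 20 lower and 0 higher on both scales. Among these SNHG5 went from 33.9, 30.4 and 32.7 CPM to 19.5, 15.3 and 17.6 CPM and GAS5 from 79.8, 64.4 and 81.3 CPM to 46.5, 43.3 and 47.2 CPM.

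The rest of the translation apparatus was lower with smaller steps. Of 53 translation factors 26 fell and 2 rose (42 and 2 after rescaling). The count was 14 to 18 with 1 sample left out, fewest without siMYCN replicate 3. PABPC1, the cytoplasmic poly(A)-binding protein, fell from 564, 537 and 433 CPM to 298, 256 and 257 CPM and EIF5A from 321, 309 and 311 CPM to 208, 199.5 and 193 CPM. The rises were EEF1A2, the elongation factor form of neurons and muscle, from 35.4, 37.1 and 38.8 CPM to 70.0, 66.7 and 67.6 CPM, and EIF4A2 by 0.47 (log2). The widely used form EEF1A1 had a log2 fold change of -0.15 and was not called. Of 40 aminoacyl tRNA synthetase genes 17 fell and 0 rose (28 and 0 after rescaling, 24 and 2 after rescaling to the sum, and 11 to 13 lower with 1 sample left out, fewest without siMYCN replicate 3), led by EARS2 (-0.75) and IARS (-0.62). In the mitochondrion, 43 of 79 ribosomal protein genes fell and 0 rose (55 and 0 after rescaling, 44 and 1 after rescaling to the sum, and 26 to 36 with 1 sample left out, fewest without siCtrl replicate 3), with MRPL12 going from 43.5, 44.2 and 43.2 CPM to 28.2, 27.8 and 26.1 CPM. Of 77 nuclear genes of oxidative phosphorylation 10 fell (13.0% of the list, beside 16.3% over all genes) and 0 rose. After rescaling 16 of the 77 fell, beside 22.5% of all genes, and 1 rose. After rescaling to the sum 13 fell and 3 rose, and on the deposited scale 3 to 8 fell with 1 sample left out, fewest without siCtrl replicate 1. The clearest of these was ATP5G1, a subunit of ATP synthase, with 88.5, 82.2 and 92.8 CPM against 57, 54.9 and 51.3 CPM.

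Nucleotide synthesis and the folate and serine pathways that feed it were lower along most of their steps. Of 47 genes 35 fell and 0 rose on the deposited scale (38 and 1 after rescaling), with a median log2 fold change of -0.54. In purine synthesis 15 of 16 fell. PAICS, a bifunctional enzyme of the pathway, went from 266, 269 and 254 CPM to 136, 127 and 121 CPM, a log2 fold change of -1.03 ± 0.12, and PPAT, the entry enzyme, fell by 0.83. In the folate and serine branch 15 of 18 fell. GLDC, the glycine decarboxylase, went from 20.3, 21.4 and 19.3 CPM to 10.5, 9.14 and 9.39 CPM, MTHFD1L from 45.9, 50.4 and 48 CPM to 25.7, 26.4 and 25 CPM, and SHMT2, the mitochondrial serine hydroxymethyltransferase, fell by 0.77 (log2). In the pyrimidine branch 5 of 13 fell (2 to 4 with 1 sample left out, fewest without siCtrl replicate 1), among them CAD, the enzyme that starts the pathway, with 187, 204 and 169.5 CPM against 107, 103 and 103 CPM. The deoxynucleotide genes RRM2, TK1 and TYMS had log2 fold changes of 0.00, 0.05 and -0.24 and were not called.

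Other supply pathways moved in part. In polyamine synthesis 3 of 5 genes fell (4 after rescaling): ODC1, ornithine decarboxylase, from 370.3, 366 and 387 CPM to 235, 226 and 228 CPM, SRM from 24.9, 26.3 and 24.9 CPM to 14.6, 14.1 and 15.1 CPM and AMD1 by 0.60 (log2). Of 23 amino acid transporters 10 fell and 3 rose (12 and 4 after rescaling). Beside SLC38A5 and SLC7A2, the glutamine carrier SLC1A5 fell by 0.72, SLC7A5 by 0.55 and the cystine carrier SLC7A11 by 0.56, whereas SLC43A2 rose from 7.41, 9.71 and 7.81 CPM to 17.4, 17.7 and 17.3 CPM. In glycolysis and the pentose phosphate pathway 12 of 32 fell and 4 rose (19 and 5 after rescaling). The enolase genes went in opposite directions. The common form ENO1 fell from 742, 709 and 752 CPM to 423, 426 and 397 CPM, and the neuronal form ENO2 rose from 33.3, 33.8 and 30.9 CPM to 66.6, 61.4 and 60.1 CPM. LDHA, which makes lactate, fell from 628, 581 and 645 CPM to 332, 323 and 306 CPM, while GAPDH had a log2 fold change of -0.19 and was not called. In cholesterol and fatty acid synthesis 7 of 36 fell and 2 rose, and 19.4% of the list fell beside 16.3% of all genes. After rescaling 11 of the 36 fell, beside 22.5% of all genes, and 4 rose, and after rescaling to the sum 9 fell and 5 rose. On the deposited scale 3 to 5 were lower when 1 sample was left out, fewest without siMYCN replicate 2. FASN and SQLE fell by 0.49 and 0.48 on the log2 scale.

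Protein folding genes were lower as well. Of 26 chaperonin and heat shock genes 19 fell and 0 rose (22 after rescaling). The count was 12 to 17 with 1 sample left out, fewest without siCtrl replicate 1. All 6 mitochondrial members fell, with a median of -0.73. HSPE1 went from 173, 160.2 and 172 CPM to 84.8, 79.5 and 76.4 CPM and HSPD1, its chaperonin partner, from 998, 976 and 976 CPM to 525, 537 and 498 CPM. These neighbours overlap on opposite strands, so their reads may be shared. TRAP1 and HSPA9 fell by 0.77 and 0.68 on the log2 scale. The heat-inducible DNAJB1 and HSPB1, with log2 fold changes of -0.06 and -0.15, were not called. Of 31 proteasome genes 2 fell on the deposited scale, which is 6.45% beside 16.3% of all genes, and 4 with the replicate number as a block. After rescaling 13 of the 31 fell, beside 22.5% of all genes, so the list lay under the share of all genes on 1 scale and over it on the other. After rescaling to the sum 7 fell.

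General splicing factors and neuron-specific RNA-binding proteins moved in opposite directions. Of 58 splicing factors 20 fell and 0 rose (36 after rescaling, and 12 to 17 with 1 sample left out, fewest without siMYCN replicate 2). The arginine methylation group that prepares Sm proteins fell in 4 of 4, with WDR77 at 75.8, 76 and 75.5 CPM against 42.3, 46.1 and 42.6 CPM and PRMT5 at a log2 fold change of -0.52. SNRPB, an Sm protein, fell from 258, 225 and 246 CPM to 161, 151 and 151 CPM. PTBP1, which holds back neuronal exons, fell by 0.39 (log2), a call that was lost in 5 of 6 fits that left out a sample and kept only without siCtrl replicate 3 (adjusted p = 0.0501 to 0.0679 in the 5). Of 14 neuronal RNA-binding proteins 10 rose and 0 fell on both scales. CELF3 went from 18.1, 18.4 and 16.7 CPM to 49.7, 42.7 and 40.8 CPM, CELF4 rose by 1.01, the HuD gene ELAVL4 by 0.79 and RBFOX3, known as the antigen NeuN, by 0.59 (log2).

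**Figure D4:**
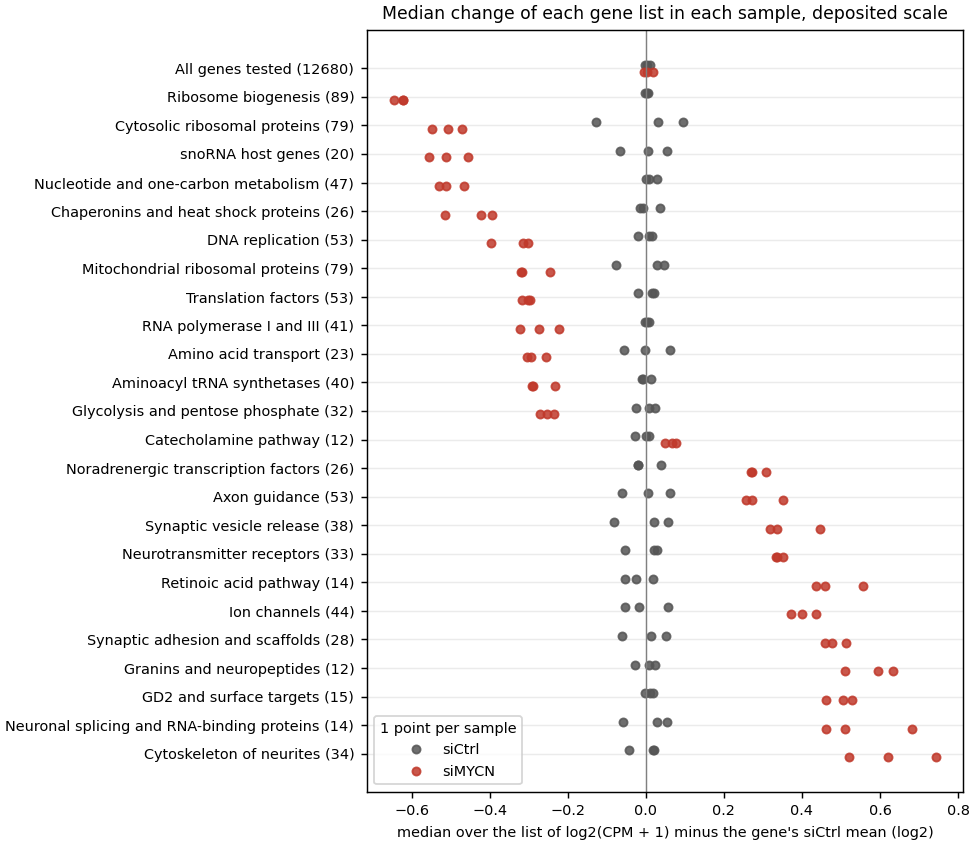
Median over each list of log2(CPM + 1) minus the siCtrl mean of the gene, for each siCtrl (grey) and siMYCN (red) sample on the deposited scale, 1 point per sample and list, with the number of genes tested in parentheses. The siMYCN points of ribosome biogenesis lie between -0.65 and -0.62, all genes tested lie near 0 in both groups, and the neuronal lists lie to the right of their siCtrl points.

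Genes of DNA replication were lower by small steps, and few mitosis genes were called on the deposited scale. Of 53 replication genes 29 fell and 0 rose (40 after rescaling), with a median log2 fold change of -0.33. ORC1, an origin recognition subunit, went from 69, 69.8 and 67.1 CPM to 49.8, 48.6 and 44.5 CPM, RFC5, a clamp loader subunit, from 63, 59.9 and 62.6 CPM to 42, 43.5 and 41.7 CPM, and MCM4, part of the replicative helicase, fell by 0.48 (log2). PCNA, the sliding clamp, had -0.19 and was not called. Of 52 mitosis genes 8 fell (15.4%, beside 16.3% of all genes) and 0 rose, with a median of -0.13. After rescaling 16 of the 52 fell, beside 22.5% of all genes, and 1 rose, and after rescaling to the sum 11 fell and 2 rose. With only the compared groups in the fit 26 of the 52 fell, beside 3414 of all 12680 genes, and 2 rose. CENPF went from 551, 587 and 478 CPM to 379, 315 and 337 CPM and MAD2L1, a spindle checkpoint protein, from 138, 128 and 139.6 CPM to 93.7, 90.1 and 88.7 CPM. The proliferation markers MKI67 and TOP2A had log2 fold changes of -0.34 and -0.11 and were not called. MKI67 was called lower without siCtrl replicate 3 (-0.57, adjusted p = 0.022) and without siMYCN replicate 1 (-0.55, adjusted p = 0.0329). Of 49 replication-dependent histone genes 7 fell on the deposited scale (14.3%, beside 16.3% of all genes), and 2 to 12 with 1 sample left out, fewest without siCtrl replicate 3. After rescaling 18 of the 49 fell, beside 22.5% of all genes.

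Among genes of cell cycle entry, 4 of 8 tested inhibitors and pocket proteins and a cyclin rose. Of 19 G1 regulators 5 rose and 2 fell (5 and 6 after rescaling, and 4 lower with the replicate block). CCND1, cyclin D1, went from 289, 316 and 308 CPM to 458, 466 and 466 CPM. The inhibitor genes CDKN2D, CDKN1C, CDKN2C and CDKN1B rose by 0.79, 0.76, 0.48 and 0.36 on the log2 scale. For CDKN2D the level went from 3.06, 3.17 and 3.12 CPM to 6.25, 5.75 and 6.38 CPM, and for CDKN1C from 4.13, 4.11 and 4.46 CPM to 7.68, 8.25 and 7.72 CPM. Their kinase targets CDK4 and CDK2 had log2 fold changes of -0.37, which was called, and -0.31, which was called after rescaling and with the replicate block (adjusted p = 0.0216) but not on the deposited scale without it. The CDK4 call was lost in all 6 fits that left out a sample (adjusted p = 0.0594 to 0.0987), and that of CDKN1B without siCtrl replicate 1 or 2 or siMYCN replicate 2 or 3 (0.0786 to 0.0994). CDKN1A, the p53-responsive inhibitor p21, had -0.22 and was not called. CDKN2A, a further inhibitor gene, was under the filter and not tested, with 1.57, 1.35 and 1.69 CPM in siCtrl and lower values of 0.712, 0.815 and 0.753 CPM in siMYCN.

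Death and stress genes showed no common direction. Of 23 p53 targets 4 rose and 3 fell (4 and 5 after rescaling). That is 17.4% and 13.0% of the list on the deposited scale, near the 17.4% and 16.3% of all genes. TP53INP1 went from 35.8, 36.9 and 34.6 CPM to 92.2, 90.5 and 94.8 CPM and AEN, a nuclease, from 85, 84.1 and 81.9 CPM to 42.9, 42 and 39.5 CPM, in opposite directions. MDM2, with a log2 fold change of -0.03, was not called. Of 20 genes of the BCL2 family and cell death 7 rose and 5 fell (10 and 7 after rescaling, and 2 to 5 lower with 1 sample left out, fewest without siMYCN replicate 3). The survival gene BCL2 rose from 28.8, 34.2 and 31.7 CPM to 51.9, 60.3 and 56.8 CPM, and so did the BH3-only death genes HRK, from 1.71, 2.28 and 1.99 CPM to 5.14, 6.45 and 4.35 CPM, and BMF, by 0.89 (log2). Among 32 genes of the integrated stress and unfolded protein responses 2 rose and 5 fell (4 and 7 after rescaling, and 8 and 6 after rescaling to the sum, so that the balance turned), with a fall of ATF4, the factor of the amino acid response (log2 fold change -0.52), and a value of 0.07, not called, for HSPA5, the main chaperone of the endoplasmic reticulum. Before rescaling 6.25% of the list rose and 15.6% fell, beside 17.4% and 16.3% of all genes. Of 20 immediate early genes 7 rose and 1 fell (9 and 1 after rescaling, with 4 to 6 higher when 1 sample was left out, fewest without siCtrl replicate 1). JUN, of the AP-1 factors, led them with 19.1, 17.6 and 19.5 CPM against 57.2, 57.6 and 60.1 CPM, and DUSP4, a MAP kinase phosphatase, went from 38.3, 39.8 and 39.3 CPM to 72.4, 72.8 and 70.8 CPM.

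Most markers of noradrenergic neuroblasts, the cell type named above for neuroblastoma, passed the filter on low values, and most of those tested rose. TH, a further marker, was under the filter and is given below. Of the 8 tested markers 7 rose and 0 fell (8 after rescaling), and their summed level went from a range of 767 to 822.7 CPM in siCtrl to 1039 to 1069 CPM in siMYCN. PHOX2A, a core transcription factor of these cells, went from 72.3, 62.4 and 70.8 CPM to 124, 111 and 111 CPM. GATA3 and HAND2 had log2 fold changes of 0.48 and 0.44, both called. Without siCtrl replicate 3 the value of GATA3 was 0.40 and missed the threshold (adjusted p = 0.0522). Of 26 noradrenergic transcription factors in all, 11 rose and 3 fell (14 and 3 after rescaling). TBX2 rose from 65.6, 68.7 and 60.8 CPM to 110.4, 107 and 102 CPM, and TFAP4, a bHLH factor, fell from 25.8, 28.4 and 28 CPM to 14.1, 15.8 and 15.7 CPM.

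Genes of catecholamine handling rose in 5 of 12 and fell in 1 (5 and 2 after rescaling). SLC6A2, the noradrenaline transporter, went from 17, 19.5 and 14.7 CPM to 52.9, 49.5 and 48.7 CPM, a log2 fold change of 1.51 ± 0.13. DBH, which makes noradrenaline, went from 2.51, 2.37 and 3.07 CPM to 7.04, 6.77 and 10.2 CPM, and GCH1, which supplies the cofactor of tyrosine hydroxylase, from 17.4, 16.4 and 21.3 CPM to 42.5, 40.7 and 46.8 CPM. MAOA, which degrades monoamines, went from 26, 26 and 24.4 CPM to 59.5, 65.5 and 55.8 CPM. All 3 siMYCN samples exceeded all siCtrl samples in each of these genes. TH, tyrosine hydroxylase itself, was under the filter, with 0.0826, 0.0685 and 0.209 CPM in siCtrl and 0.396, 0.395 and 0.259 CPM in siMYCN. Of 12 granin and neuropeptide genes 8 rose and 1 fell (9 and 1 after rescaling). SCG2, secretogranin II, went from 43.5, 43 and 42.3 CPM to 131, 141 and 125 CPM, while VGF, another granin, fell from 11.3, 11 and 11.4 CPM to 6.67, 6.27 and 6.24 CPM.

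In the cytoskeleton of neurites 27 of 34 genes rose and 1 fell (29 and 2 after rescaling, and 2 lower with the replicate block), with a median log2 fold change of 0.63. All 12 tested microtubule genes rose, with a median of 0.84. TUBA1A, the main alpha-tubulin of young neurons, went from 851, 769.5 and 910.3 CPM to 2440.0, 2339 and 2222 CPM and the neuronal beta-tubulin TUBB3 rose by 0.89 (log2). KIF5A, a kinesin motor of axons, rose by 1.26 and MAPT, which encodes tau, by 0.94. The tubulin genes share long identical stretches, so reads could be divided among them in the authors' counting. Of 15 stathmin and growth cone genes 13 rose. Beside STMN2, STMN4 and GAP43, the level of DCX, doublecortin, went from 70.8, 69.9 and 57.4 CPM to 217, 199.9 and 191 CPM. Neurofilaments did not follow: of 7 intermediate filament genes 2 rose and 1 fell (2 and 2 after rescaling). PRPH, the peripherin of sympathetic neurons, rose from 58.9, 56.5 and 54.3 CPM to 146, 143 and 145 CPM, NEFH fell by 0.58 (log2), and NEFL and NEFM had log2 fold changes of -0.09 and -0.39 and were not called on the deposited scale, NEFM being called after rescaling and with the replicate block (adjusted p = 0.00572), and also without siCtrl replicate 3 (-0.51, adjusted p = 0.0329) or siMYCN replicate 1 (-0.48, adjusted p = 0.0494).

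Many synaptic genes rose, though not in all parts of the machinery. Of 38 genes of vesicle release 20 rose and 2 fell (25 and 2 after rescaling), with a median of 0.37. SYT11 went from 66.6, 68.5 and 68.4 CPM to 252, 239 and 243 CPM and SYNGR3 from 0.826, 0.753 and 1.06 CPM to 5.75, 4.94 and 5.25 CPM, whereas SYT2, also a synaptotagmin, fell from 9.55, 10.8 and 8.17 CPM to 3.54, 2.84 and 2.31 CPM. SYT1, the main calcium sensor of release, rose by 0.71 and SYP, synaptophysin, by 0.71 (log2), while NSF and UNC13A had 0.10 and -0.17 and were not called. In synaptic and neurite adhesion 16 of 19 genes rose and 0 fell on both scales, with a median of 0.74. L1CAM went from 70.2, 65.4 and 56.8 CPM to 208, 185 and 181 CPM, CNTN1, contactin, from 49.7, 50.1 and 51.9 CPM to 143, 146 and 139.9 CPM, and CHL1 from 4.24, 4.15 and 3.4 CPM to 14, 13.2 and 13.5 CPM. Of 9 postsynaptic scaffold genes 2 rose and 2 fell (3 and 2 after rescaling), HOMER1 and GPHN being lower by calls that were lost without siCtrl replicate 3 or siMYCN replicate 2 for HOMER1 (adjusted p = 0.0756 and 0.0542) and without siCtrl replicate 1 or siMYCN replicate 3 for GPHN (0.119 and 0.106).

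Channels and receptors of excitable cells followed the same direction. Of 44 ion channel genes 26 rose and 2 fell (25 and 2 after rescaling). SCN9A went from 1.97, 2.7 and 1.84 CPM to 9.58, 10.8 and 10.2 CPM, SCN3A, a sodium channel of developing neurons, from 16.9, 16.9 and 16.6 CPM to 39.5, 41.3 and 38.5 CPM, and RYR2, a calcium release channel, from 15.2, 17.4 and 16.6 CPM to 36.4, 39 and 41.2 CPM. KCNH2 and KCNQ3 had log2 fold changes of -0.03 and -0.06 and were not called. Of 33 neurotransmitter receptor genes 18 rose and 3 fell (21 and 4 after rescaling), with 11 to 14 higher when 1 sample was left out, fewest without siCtrl replicate 3. P2RX3, an ATP-gated channel of sensory and autonomic neurons, went from 2.73, 2.65 and 2.89 CPM to 11.1, 11.3 and 11.3 CPM, and CHRNA3, the alpha subunit of ganglionic nicotinic receptors, rose by 0.77 (log2). GABRA5, a GABA-A receptor subunit, fell from 17.1, 15.5 and 15.8 CPM to 9.58, 7.09 and 8.42 CPM. Of 53 axon guidance genes 25 rose and 4 fell (29 and 5 after rescaling). NRP1 and DCC led the rises, and PLXNA2, a semaphorin receptor, went from 27.6, 28.9 and 26.7 CPM to 70.4, 71.1 and 61.1 CPM. EPHA2 and PLXND1 fell by 1.14 and 1.06 on the log2 scale.

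Receptor kinases of the sympathetic lineage rose. Of 10 genes of the neurotrophin, RET and ALK group 7 rose and 0 fell (8 after rescaling). ALK (chr2:29415640-30144478), which is mutated in part of neuroblastomas, went from 36.8, 39.7 and 37.9 CPM to 163, 167 and 159 CPM. RET, the GDNF receptor kinase, went from 1.79, 1.55 and 1.46 CPM to 6.3, 6.17 and 5.29 CPM. Among 24 other kinases and ligands 4 rose and 8 fell (6 and 8 after rescaling). FGFR4 fell from 4.57, 4.84 and 4.91 CPM to 1.98, 1.43 and 1.74 CPM and IGFBP4, which binds IGF, from 36, 32.6 and 26.3 CPM to 16.4, 14.3 and 11.9 CPM. The retinoic acid pathway, used to induce differentiation in neuroblastoma, rose in 8 of 14 and fell in 0 (9 after rescaling). STRA6, a retinol uptake receptor, went from 11.4, 12.8 and 10.1 CPM to 37.5, 37.1 and 32.2 CPM, ALDH1A3, which makes retinoic acid, from 3.39, 3.63 and 4.6 CPM to 9.47, 8.98 and 8.99 CPM, and RARB, a receptor that is itself a retinoic acid target, from 2.31, 2.83 and 3.17 CPM to 5.65, 5.06 and 6.54 CPM. CYP26A1, which degrades retinoic acid, had a log2 fold change of -0.15 and was not called.

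Among fate regulators, 10 of 26 SOX and neural fate factors rose and 1 fell on the deposited scale (12 and 3 after rescaling, and 2 lower with the replicate block). The single fall was REST, the repressor of neuronal genes, with 23.6, 26.4 and 17.7 CPM against 10.3, 9.63 and 8.49 CPM and a log2 fold change of -1.16 ± 0.13. SOX4 rose from 103, 114 and 121 CPM to 248, 241 and 258 CPM, SOX11 by 0.61 and MYT1 from 17.5, 18.6 and 17.6 CPM to 38.4, 35.6 and 36.5 CPM. In the Notch, BMP and ID list 7 of 25 rose and 5 fell (10 and 5 after rescaling). The ligand TGFB2 went from 7.05, 7.05 and 7.6 CPM to 23.8, 27 and 25.9 CPM and JAG1, a Notch ligand, from 2.56, 3.33 and 2.79 CPM to 9.55, 10.2 and 10.1 CPM, while the receptors NOTCH1 and NOTCH3 fell by 0.48 and 0.60, and NOTCH3 had -0.49 and missed the threshold without siCtrl replicate 2 (adjusted p = 0.0551). LIN28B, the blocker of let-7 maturation, fell from 68.8, 74.5 and 77.4 CPM to 43, 52.7 and 52 CPM, and DICER1 had 0.11 and was not called. Of 28 polycomb genes 3 rose and 5 fell (7 and 8 after rescaling, 10 and 6 after rescaling to the sum, which turned the balance, and 1 to 2 higher with 1 sample left out, fewest without siCtrl replicate 3), with EZH2 at -0.27, called after rescaling and with the replicate block (adjusted p = 0.0487) but not on the deposited scale without it. Before rescaling 10.7% of the polycomb list rose and 17.9% fell, beside 17.4% and 16.3% of all genes. Of 9 tested HOX genes limma called 0 on the deposited scale, with 1 higher and 1 lower at an unadjusted p under 0.05, and 1 after rescaling or with the replicate block.

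The matrix and cell surface changed in both directions. Of 49 extracellular matrix genes 12 rose and 14 fell (16 and 15 after rescaling). TNC went from 6.75, 7.01 and 6.61 CPM to 26.7, 28.9 and 27.9 CPM and COL5A1 rose by 1.05, while COL14A1, COL4A1 and LAMA1 fell by 1.24, 1.07 and 1.28 on the log2 scale. Of 21 mesenchymal identity genes 8 rose and 1 fell (9 and 1 after rescaling). AHNAK, a giant scaffold protein, went from 113, 139 and 83.2 CPM to 363, 444 and 319 CPM, with wide scatter within both groups, and ANXA2 from 367, 322 and 354 CPM to 574, 515 and 506 CPM. VIM and FN1, vimentin and fibronectin, had -0.22 and 0.07 and were not called. Of 15 genes for GD2 ganglioside synthesis and other surface targets of neuroblastoma therapy 10 rose and 0 fell (11 after rescaling). ST8SIA1, the GD3 synthase, went from 2.2, 2.01 and 1.97 CPM to 4.14, 4.52 and 5.43 CPM, B4GALNT1, the GD2 synthase, rose by 0.56 and CD276, also called B7-H3, by 0.48 (log2). Of 41 lysosome and autophagy genes 12 rose and 1 fell on the deposited scale, 25 and 1 after rescaling and 29 and 1 after rescaling to the sum, with GABARAP at 76.9, 77.4 and 75.7 CPM against 120.4, 121 and 109 CPM. ABCC4, an exporter of the ABC family, fell from 50.6, 51.2 and 48.9 CPM to 25.6, 28.1 and 24.4 CPM.

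Further groups were small or mixed. Of 18 cadherin genes 7 rose and 1 fell (7 and 2 after rescaling, and 2 lower with the replicate block), with CDH6 going from 5.48, 5.5 and 6.54 CPM to 14.9, 13.5 and 15.9 CPM, and of 9 integrin genes 3 rose and 0 fell (5 higher after rescaling or with the replicate block), led by ITGA1 with a log2 fold change of 0.62. Of 13 RGS genes, which end G protein signals, 4 rose and 1 fell (4 and 2 after rescaling, and 2 lower with the replicate block), RGS10 being the lower member with -0.67. Of 15 interferon and antigen presentation genes that passed the filter 3 rose and 2 fell, and 3 and 2 after rescaling. With 1 sample left out 1 to 3 were higher, fewest without siCtrl replicate 3. Over all genes 17.4% rose and 16.3% fell on the deposited scale, and 25.4% and 22.5% after rescaling. These counts alone thus do not set the interferon list apart. B2M, the light chain of class I complexes, had a log2 fold change of -0.13 and was not called. Of 15 imprinted and nuclear noncoding genes 5 rose and 4 fell (7 and 5 after rescaling, and 2 to 4 lower with 1 sample left out, fewest without siCtrl replicate 2). H19 went from 3.49, 3.81 and 3.47 CPM to 9.37, 9.93 and 9.96 CPM and the nuclear RNA MALAT1 from 498, 690.1 and 543 CPM to 829.9, 1062 and 1148 CPM. Both were higher in every siMYCN sample, while the imprinted gene DLK1 had a log2 fold change of -0.06 and was not called. Of 19 genes on the short arm of chromosome 2, around MYCN and in another region that can be amplified in neuroblastoma, 3 rose and 3 fell (4 and 4 after rescaling, 6 and 3 after rescaling to the sum), with DDX1, the neighbour often amplified together with MYCN, at -0.17 and not called. On the deposited scale 15.8% of these genes rose and 15.8% fell, near the 17.4% and 16.3% of all genes. Of 19 ABC transporters 4 rose and 6 fell (5 and 7 after rescaling, and 3 to 5 lower with 1 sample left out, fewest without siCtrl replicate 1).

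Markers of other cell types were mostly at trace levels. Of 29 markers of fibroblasts, Schwann cells, endothelium, leukocytes and epithelium 5 passed the filter and 3 of these rose, among them PDGFRA and CDH5, while 0 fell (1 after rescaling or with the replicate block). The PDGFRA call was lost without siCtrl replicate 3 or siMYCN replicate 2 (adjusted p = 0.0549 and 0.0585). None of the 5 leukocyte or 5 epithelial markers passed it, and PECAM1, DCN and CD3E, defining genes of endothelium, fibroblasts and T cells, were listed at 0 in all 6 samples. The summed fibroblast markers, mostly PDGFRA, ranged from 115.7 to 124.7 CPM in siCtrl and from 149.3 to 159 CPM in siMYCN. The summed Schwann cell markers ranged from 1.79 to 1.92 CPM and from 2.93 to 3.63 CPM, and the endothelial markers from 0.606 to 0.89 CPM and from 2.09 to 2.88 CPM. These sums rose, as did 12 of 49 matrix genes and 8 of 21 mesenchymal identity genes, while 14 and 1 genes of those lists fell. The part of these sums in those results was not tested.

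A direct test of siMYCN against siHAND2 showed where the MYCN knockdown stood apart from the other single knockdown. This test shares the siMYCN samples with the comparison above. It called 35.0% of the genes, 26.1% higher in siMYCN and 8.98% lower, and after rescaling 44.5%, 22.4% higher and 22.2% lower. The rescaled counts are given here because the listed share of reads was lower in siHAND2, at 56.8% to 61.4%, and the median over all genes moved from 0.13 on the deposited scale to -0.01 after rescaling. RNA of ribosome and translation genes was lower in siMYCN than in siHAND2. Called lower were 78 of 79 cytosolic ribosomal protein genes, 35 of 53 translation factors and 71 of 89 ribosome biogenesis genes. In the last group 1 gene was called higher. RPL12 was at 742, 801 and 786 CPM in siHAND2 and NPM1 at 1236, 1345 and 1297 CPM. For RPL12 the siHAND2 samples lay well above the siMYCN values, with a log2 difference of -1.14 after rescaling.

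The cell cycle lists stood the other way. Higher in siMYCN than in siHAND2 were 43 of 53 replication genes, 48 of 52 mitosis genes and 48 of 49 histone genes, and 0 genes of these lists were lower. The rescaled median of the mitosis list was -0.12, -0.10 and -0.16 in the 3 siMYCN samples and -0.69, -0.69 and -0.73 in the 3 siHAND2 samples, relative to siCtrl. For ribosome biogenesis the medians were -0.63, -0.61 and -0.62 in siMYCN and -0.29, -0.23 and -0.24 in siHAND2. In cholesterol and fatty acid synthesis 22 of 36 were higher and 3 lower. The neuronal lists were divided: of 34 genes of the neurite cytoskeleton 8 were higher and 10 lower in siMYCN than in siHAND2, and of 44 ion channels 9 and 13. Over all genes 22.4% were higher and 22.2% lower in this rescaled test, so these counts alone do not set the neuronal lists apart. STMN2 was at 23.7, 25.2 and 31 CPM in siHAND2, under its siMYCN level, while GAP43, at 57.3, 63.6 and 69.8 CPM, was over it. Receptor and noradrenergic genes differed as well. ALK was at 10.6, 11.4 and 12 CPM, PHOX2A at 15.4, 17.2 and 15.4 CPM and SLC6A2 at 6.93, 7.21 and 7.43 CPM in siHAND2, all under siCtrl, and the differences of siMYCN from siHAND2 were 3.58, 2.63 and 2.5 (log2, rescaled). In the retinoic acid pathway 9 of 14 were higher and 2 lower in siMYCN.

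**Figure D5:**
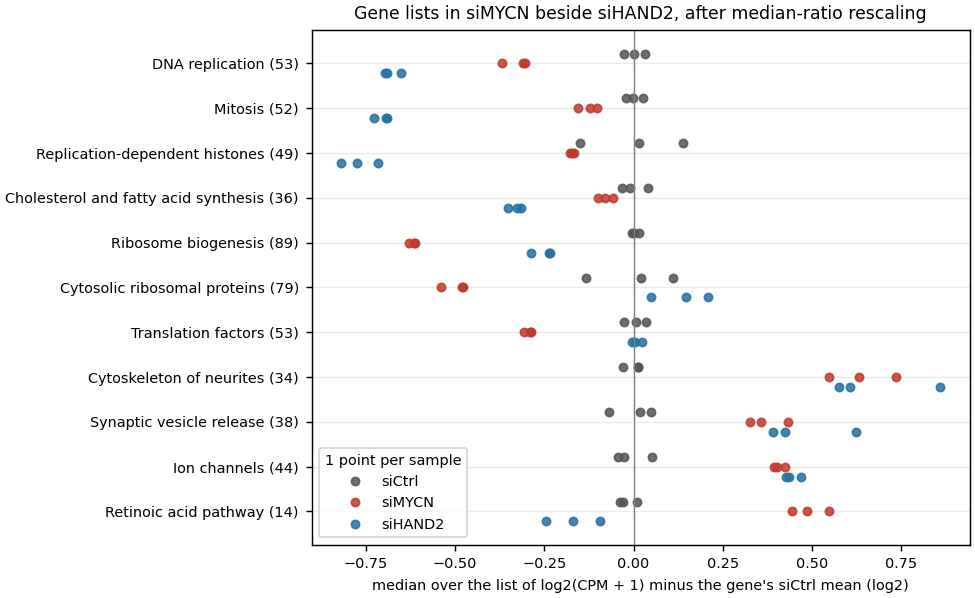
Median over each list of log2(CPM + 1) minus the siCtrl mean of the gene after median-ratio rescaling, for each siCtrl (grey), siMYCN (red) and siHAND2 (blue) sample, 1 point per sample and list. For mitosis the siMYCN points lie between -0.16 and -0.10 and the siHAND2 points between -0.73 and -0.69, for ribosome biogenesis the siMYCN points lie lower, and for the neurite cytoskeleton both knockdowns lie to the right of siCtrl.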

How the data were processed

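Total RNA of IMR32 cells was sequenced in 12 samples, 3 for each of 4 siRNA groups, and groups were taken from the sample titles. The authors deposited 1 table of counts per 1000000 reads (CPM) for 27514 genes, with 0.0001 added to each value. STAR 2.5.1, Partek and build hg19 (GRCh37) are named in the submitters' processing notes, and the role of each step and the use of strand are not given in the sources used here. The constant was subtracted first. About 91% of values under 20 reads came out as whole reads within 0.1 of a read and about 83% of those from 20 to 200, so no count test was run.

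The 12680 genes whose CPM averaged 1 or more across all 12 samples were tested on log2(CPM + 1) with limma 3.58.1 in R 4.3.3. The fit held all 4 groups, with a mean-variance trend, 8 residual degrees of freedom and Benjamini-Hochberg adjustment, and was tested on simulated data. For median-ratio rescaling, the ratio of each gene to its geometric mean across samples was taken for genes averaging 5 CPM or more, and each sample was divided by the median of its ratios.

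Samples with the same replicate number deviated together from their group means, with correlations of 0.440, 0.147 and 0.308 between siCtrl and siMYCN and of 0.330, 0.137 and 0.316 between siHAND2 and siMYCN. The numbers in the titles were therefore taken to pair the samples, and the fit with the replicate number as a block was run beside the fit without it. The siCtrl samples, and likewise the siMYCN samples, differed from each other by more than sampling noise.

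Named genes were MYCN and its network, the 15 largest rises and falls among called genes that averaged 5 CPM or more and whose groups did not overlap, and, in each of 56 lists, up to 4 called members with the largest change and up to 4 well known ones. The members and lists were chosen with earlier results of these data known. Of the list symbols 14 were not matched, 13 of them mitochondrial, and 2017 genes were matched. Several named genes overlap a neighbour, among them NOP16, CD3EAP, HAND2, PHOX2A, DBH, POLR3GL and WDR77, or host small RNAs, and their reads may include those of the other gene. Promoters are RefSeq sequences of GRCh38.p14, used for letters only, while gene positions are hg19. Other pseudocounts, filters, scalings, thresholds, samples in the fit and a fit with no trend were tried. A few genes of the lists are counted with them but not reported here by name.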

Additional observations from a re-analysis of the deposited data

How the results depend on the processing

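The comparison of siMYCN with siCtrl gave 4273 calls. Fitting only the compared groups gave 6963, median-ratio rescaling with the replicate block 6480, an adjusted p under 0.01 gave 2761, and a log2 fold change of at least 1 gave 290, or 279 after rescaling. With a sample left out it gave 3202 to 3434. Against siHAND2 there were 4443 calls. Fitting only the compared groups gave 6730, an adjusted p under 0.01 gave 2890, a log2 fold change of at least 1 gave 407, or 373 after rescaling, and leaving out a sample gave 3261 to 3757. The replicate block alone gave 4926 and 5163 calls. It lost 1 call in the former and 0 in the latter, turned 0, ended the call of 0 named genes and added 4 named genes. The other settings stayed within 1.5 times of these counts. MYCN stood at 66.1% to 68.9% of siCtrl with a sample left out. Of the 178 named genes that were called, 166 kept their call in direction and threshold under each setting run without a changed threshold, and 12 lost it in at least 1, of which 9 did so when a sample was left out. CD276, FASN and SLC7A5 lost it only with no filter on low values (adjusted p = 0.0507, 0.0581 and 0.0526). The cause was not tested. A gene at 1 CPM rested on 36.3 to 57.4 reads in a siCtrl library, and genes averaging less were not tested.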
